A study of Arabidopsis thaliana with 4 samples.

Results

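Plates TC17 to TC25 are a stretch of array tiles, numbered by plate and well, that scored low in an H3K9me3 chromatin immunoprecipitation of Arabidopsis thaliana seedlings. The members are all tiles of set TC with plate number 17 to 25 that have a score on all 4 arrays: 804 of the 21716 scored tiles of the series, out of 809 identifiers that the deposited table lists on these 9 plates. The plates had been picked because their median scores were low in both chromatin preparations, so their low level below is a description, with no test. The chromatin came from Col-0 seedlings, the common wild-type ecotype, aged 10 days, which received no treatment and grew at 22 °C in liquid culture under a day of 16 h. Each of 2 preparations, I and II, was hybridised against its own input chromatin on 2 arrays with the dyes exchanged. There is no other genotype, treatment or antibody in the series, and whether I and II stem from different cultures is not stated. The columns of the exchanged arrays hold identical scores at all 21716 tiles, so the arrays of a preparation count as 1 sample and n = 2.

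H3K9me3 is trimethylation of lysine 9 on histone H3. In animals it is the classical mark of condensed, silent chromatin, where HP1 proteins bind it. In Arabidopsis, H3K9me2 takes that place over transposons and repeats, and H3K9me3 has been reported mainly over genes of the chromosome arms. The array asks how much of each stretch of DNA came down with the antibody relative to input. The sign of the deposited score is not stated, so a low score may stand for less or for more immunoprecipitated DNA. None of the 809 identifiers matched a name in the gene table of the TAIR10.1 assembly. The tiles are therefore described by plate and well, without gene or position, and no sequence of a tile was used here.

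All values below are differences from the median of the same preparation over all 21716 tiles, in score units. The table holds 27 plates of set TC. It has no rows for plates TC14, TC15, TC16 and TC26, so the step from TC16 into the stretch is not analysed here. The nearest plates with scores, TC13 before and TC27 after, were used in its place.

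The 804 tiles had a median score of -0.34 in preparation I and -0.53 in preparation II. The mean of both preparations had a median of -0.44 over the tiles (SD of the preparations' medians 0.14, n = 2). This median became -0.29 when the mode of each preparation was taken as the zero. Outside the stretch, 20912 tiles had a median of 0.019. The low level was a property of nearly the whole stretch: 695 tiles (86.4%) lay below 0 in both preparations, against 42.8% of all tiles, and 58 lay above 0 in both, where the share over all tiles was again 42.8%. The remaining 51 tiles had opposite signs. Of 68 plate rows, 64 of them with 12 scored tiles, 65 had a mean below 0 in both preparations.

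**Figure D1:**
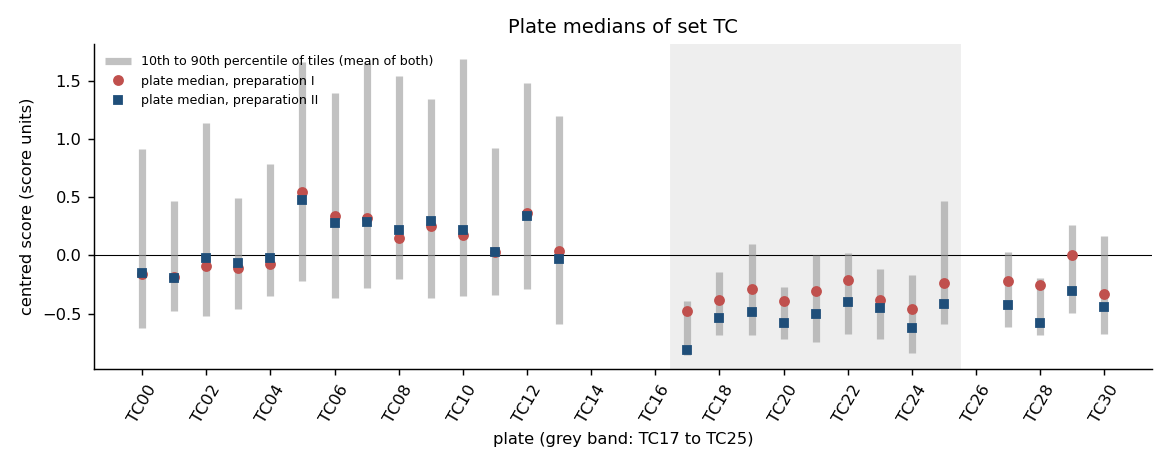
Centred score (vertical axis, score units) of the 27 plates of set TC that have scores. Circles and squares are the plate medians in preparations I and II, grey bars run from the 10th to the 90th percentile of the tiles in the mean of both, and the grey band marks TC17 to TC25, where every plate median is below -0.2 in both preparations.

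The upper tail was short. The 90th percentile of the mean score was -0.029, compared with 1.14 outside the stretch, and the 10th percentile was -0.74, compared with -0.50. Only 3 tiles (0.373%) reached 1, while 11.9% of all tiles did. At the lower end 5 tiles (0.622%) were at -1 or less, where the share over all tiles was 0.327%. In preparation II alone 23 tiles were at -1 or less, and in preparation I alone 5. The share over all tiles was not computed for a single preparation. The tiles also differed less from each other than elsewhere: the SD across tiles was 0.31, against 0.64 outside. It was 0.32 on TC27 to TC30 and 0.34 on the low plates TA37 to TA51, where the interquartile width, 0.295, was smaller than the 0.320 of TC17 to TC25.

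With limma over all 21716 tiles (Benjamini-Hochberg adjusted p under 0.05, n = 2 preparations), 562 of the 804 tiles scored lower than the median, where 25% of all tiles did, and 38 scored higher, where 31.6% of all tiles did. Another 204 passed in neither direction. limma gave all tiles 1 shared spread of 0.20 score units per preparation, so a tile passed when its mean lay more than 0.31 from the median. The plates had been chosen by these same scores, so nothing is read from the counts. With the mode as the zero 333 tiles were lower, and without plate TC25 only 16 tiles were higher.

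Plates within the stretch differed. TC17 was the lowest, with a median of -0.48 in preparation I and -0.81 in preparation II. All 60 of its tiles lay below 0 in both preparations and all 60 passed the limma threshold as lower. Its highest tile, TC17G11, scored -0.13 in I and -0.54 in II, and its SD across tiles, 0.17, was the smallest of the 231 plates of the series. The table lists TC17 from well D01 on, so rows A to C of this plate are not part of the data.

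TC24 followed, with medians of -0.46 in I and -0.63 in II, and then TC20, with -0.39 and -0.58. On TC20 93 of 96 tiles lay below 0 in both preparations, and its SD across tiles was 0.20. In the mean of both preparations TC17, TC24 and TC20 ranked 1, 2 and 4 from the bottom among the 231 plates. The plates TC23 and TC18 stood close together, with mean medians of -0.43 each, and so did TC25, TC19 and TC21, between -0.384 and -0.375. The mean medians of these 5 plates lay between -0.435 and -0.375, while the medians of I and II on each of them differed by 0.073 to 0.20.

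TC22 was the least low plate. Its medians were -0.21 in I and -0.40 in II, just past a limit of -0.2 in both preparations that all 9 plates met. TC25 had -0.24 in I and -0.42 in II. Just outside that limit, TC01 had medians of -0.188 in I and -0.196 in II. After the stretch, TC29 had 0.0018 in I and -0.30 in II.

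The low scores did not end with TC25. TC27 had medians of -0.22 in I and -0.43 in II, TC28 of -0.25 and -0.58, and TC30 of -0.33 and -0.44. These 3 plates met the same limit but are not part of the stretch. TC26, between TC25 and TC27, has no rows, and TC29 missed the limit in preparation I. The median of TC27 differed from that of TC25 by 0.050 in the mean of both, by 0.020 in I and by -0.0092 in II. Over the 324 tiles of TC27 to TC30 the median was -0.32, 72.2% lay below 0 in both preparations, and the highest tile reached 0.96.

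At the other end the change was larger. TC13, of which 34 tiles were scored, had a median of 0.034 in I and -0.031 in II, and its tiles ran from -0.91 to 1.87 in the mean of both. The median of TC17 was lower than that of TC13 by 0.64 in the mean of both (preparation I -0.51, preparation II -0.78, SD 0.19, n = 2). The last 24 scored tiles of TC13 were lower than its others, with a median of -0.25, and the first 24 of TC17 had -0.68, a difference of -0.43. The first 3 tiles of TC17 already scored low: TC17D01 had -0.29 in I and -0.71 in II, TC17D02 had -0.68 and -1.01, and TC17D03 had -0.78 and -1.002. How the scores run between TC13 and TC17 is not known from these data. Over the 1282 tiles of TC00 to TC13 the median was 0.062, and 15.6% of tiles were at 1 or more.

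**Figure D2:**
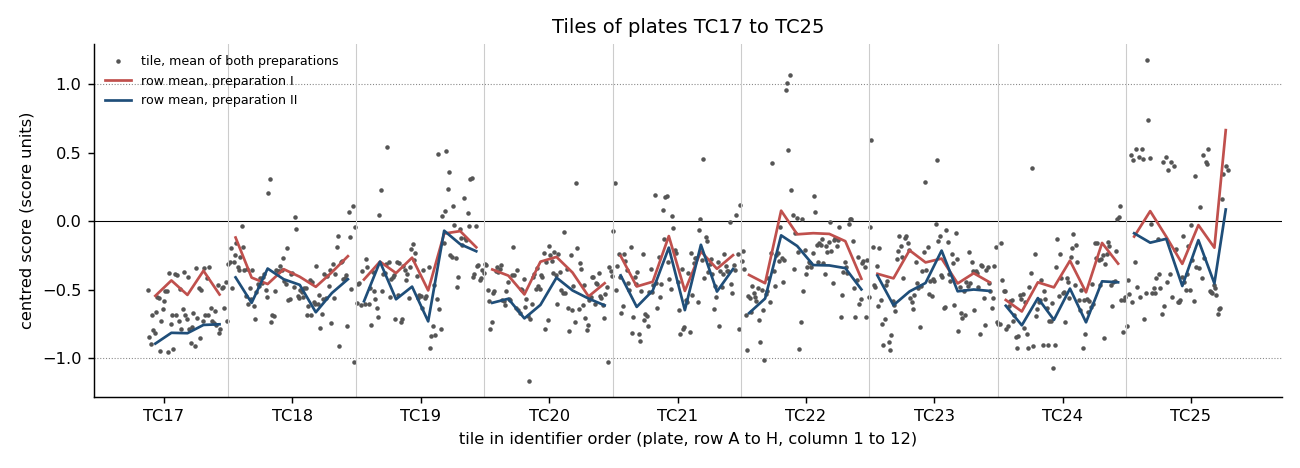
Centred score (vertical axis, score units) of the 804 tiles in identifier order. Grey points are tiles in the mean of both preparations, the lines are means of rows of 12 wells in preparations I and II, and dotted lines mark 1 and -1. The line of preparation II lies below that of preparation I in 63 of 68 rows, 3 tiles are above 1, and TC25 has a separate band of points near 0.4.

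Few tiles stood out upwards. The 74 tiles above 0 in the mean of both formed 52 runs of adjacent tiles, 39 of them single tiles. Among the 12 tiles with a mean of at least 0.5, 6 were single. The 3 tiles at 1 or more were not adjacent to each other, but each had a neighbour of at least 0.5. The longest run of adjacent tiles above 0 held 6 tiles, from TC22C10 to TC22D03, with a mean of 0.71 in I and 0.57 in II. TC22C10 scored 0.94 in I and 0.97 in II. TC22C11 scored 1.09 and 0.93, a mean of 1.01 ± 0.12 (SD, n = 2). The tile after these, TC22C12, was lower, at 0.69 in I and 0.36 in II. TC22D01 reached 1.13 and 1.003, with a mean of 1.07 ± 0.091 (SD, n = 2). From there the scores fell off to 0.34 and 0.12 at TC22D02 and to 0.033 and 0.059 at TC22D03. Both preparations thus show this run.

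The highest tile of all was TC25B04, with 1.30 in I and 1.05 in II, a mean of 1.18 ± 0.18 (SD, n = 2). The tile before it, TC25B03, scored -0.45 in I and -0.60 in II. The tile after it, TC25B05, scored 0.92 and 0.55. Of the 12 tiles at 0.5 or more (23.9% of all tiles reached this size), 5 lay on TC25, 4 on TC22, 2 on TC19 and 1 on TC23. TC17, TC18, TC20, TC21 and TC24 had none. On those 5 plates the highest tiles were TC17G11 at -0.34, TC18C08 at 0.31, TC20F09 at 0.28, TC21F08 at 0.45 and TC24C02 at 0.39, all in the mean of both. On the other 2 plates with high tiles, TC19B12 scored 0.38 in I and 0.71 in II, and TC23A02 scored 0.34 and 0.85.

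Low scores ran on over many consecutive wells, which give no distance along the DNA because the tiles have no known position. With 730 tiles of the stretch below 0 in the mean of both, long runs were likely. Run lengths were not compared with other plates. The longest run of adjacent tiles below 0 held 90 tiles, from TC17D01 to TC18C06, and crossed from TC17 into TC18. This run began at the first well listed for TC17, so its full length is not known. Its tiles averaged -0.43 ± 0.22 in I and -0.69 ± 0.24 in II (SD across tiles). The next longest held 77 tiles. Runs at -0.5 or less were shorter: the 324 such tiles (40.3%, against 11.2% of all tiles) fell into 143 runs, the longest with 19 tiles from TC24A05 to TC24B11.

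The lowest tile was TC20C10, with -1.28 in I and -1.05 in II (mean -1.16 ± 0.16, SD, n = 2). TC24D06 followed with -0.90 and -1.23, a mean of -1.07. TC20H09 had -0.96 and -1.09, a mean of -1.03. The other tiles at -1 or less were TC18H11, with a mean of -1.02, and TC22B06, with -1.01. These lay on 4 plates, and TC17, whose median was lowest, had none. Its lowest tile, TC17E04, was at -0.95. The lowest tiles of the remaining plates were TC19E08 at -0.92, TC21B09 at -0.87, TC23B04 at -0.94 and TC25A01 at -0.76.

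The preparations ranked the tiles alike. Across the 804 tiles Pearson's r between I and II was 0.77 and Spearman's rho 0.71. Across the 1282 tiles of TC00 to TC13, whose scores span a wider range, r was 0.93. Without the 5% of tiles with the lowest and the 5% with the highest mean scores r was 0.61. By plate r ran from 0.52 on TC17 to 0.88 on TC22, the plate with the run of high tiles. Of the 80 highest tiles in each preparation 56 were shared (70% of each list), and of the 80 lowest 40 were shared (50% of each list). These values are across tiles of the same hybridisations, which are not independent replicates.

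Preparation II was the lower one on all 9 plates. The median of I minus II over the tiles was 0.18, and 610 tiles (75.9%) were lower in II, where 58.9% of all tiles were. Outside the stretch the median of I minus II was 0.057. It was 0.029 on TC00 to TC13, 0.26 on TC27 to TC30, 0.17 on the low plates TA37 to TA51 and 0.070 on the low plates TA20 to TA28. Within the stretch it was 0.35 on TC17 and between 0.13 and 0.20 on the other plates. With equal scaling of the preparations it was 0.16, and with the mode as the zero 0.25. Each preparation gives 1 value, so the difference has no test. An exact two-sided sign-flip test over 2 preparations cannot go below p = 0.5.

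**Figure D3:**
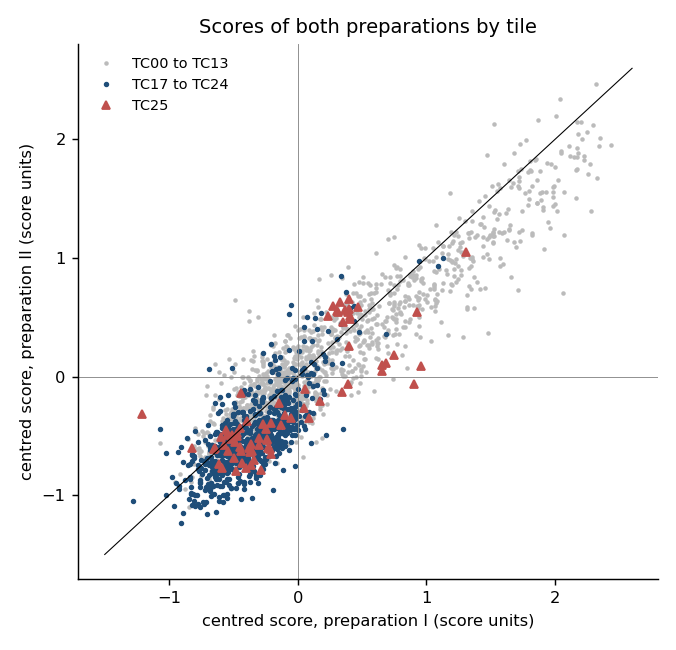
Score of each tile in preparation I (horizontal axis) and preparation II (vertical axis), in score units. Grey points are TC00 to TC13, blue points TC17 to TC24, red triangles TC25, and the diagonal marks equal scores. Most blue points lie below 0 on both axes and under the diagonal, and a group of triangles stands near 0.4 in I and 0.55 in II.

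On TC25 the tiles alternated by column. In even columns the median was 0.24 in I and -0.13 in II over 35 tiles, and in odd columns -0.30 and -0.49 over 39 tiles. The gap of the medians, even minus odd, was 0.54 in the mean of both (I 0.54, II 0.36) and was the largest of the 231 plates in either direction. On TC18 to TC24 this gap lay between -0.088 and 0.018.

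The alternation came from rows A, C and E. There, the 14 scored tiles in even columns 4 to 12 ran from 0.24 to 0.47 in I with a median of 0.36. In II they ran from -0.13 to 0.65 with a median of 0.55. The 15 tiles between them, in odd columns 3 to 11, ran from -0.64 to -0.13 in I and from -0.79 to -0.38 in II. The 2 sets did not overlap in either preparation. Column 2 of rows A, C and E, also even, was left out of them, and its tiles lay below 0 in both preparations. In rows A and C the 10 even tiles were nearly level, with an SD across tiles of 0.069 in I and between 0.46 and 0.65 in II. Rows B, D and F showed no such alternation, with medians of -0.45 in even and -0.49 in odd columns in the mean of both. The rows and columns were singled out after their values were seen.

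The last tiles of TC25 differed between the preparations. TC25G01, TC25G03 and TC25G05, the last 3 with a score, had 0.65, 0.69 and 0.66 in I and 0.043, 0.12 and 0.098 in II. The tiles between them, TC25G02 and TC25G04, have no score. TC25F01 scored 0.91 in I and -0.065 in II, and TC25F02 scored 0.96 and 0.092. The opposite gap was at TC25A01, the first tile of the plate, with -1.21 in I and -0.32 in II. TC25F01, TC25F02 and TC25A01 had the largest differences between preparations in the stretch. The preparations differed by more than 0.5 at 33 tiles (4.1%), where 7.2% of all tiles did, and 8 of the 33 were on TC25 and 7 on TC17.

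TC25, with 74 scored tiles, also held 22 of the 38 tiles that limma called higher, where 31.6% of all tiles were called higher. It held 21 of the 58 tiles above 0 in both preparations. These were 28.4% of its tiles, below the 42.8% of all tiles. TC19 held 12 and TC22 10 of the 58. The median of the stretch without TC25 was -0.45, and leaving out any 1 plate kept it between -0.45 and -0.42.

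TC17 alternated too, in the other direction and by less. Its 30 tiles in even columns had a median of -0.57 in I and -0.90 in II, and its 30 tiles in odd columns -0.31 and -0.71. The gap was -0.22 in the mean of both (I -0.26, II -0.19, SD 0.050, n = 2), the fifth lowest of the 231 plates. TC13, before the stretch and with 34 tiles, had a gap of -0.26 and ranked 3 from the bottom. Of the 30 pairs on TC17 of an odd well and the even well after it, the even one was lower in 23 in I and in 22 in II. The values of both sets overlapped. The labels give no contents for the alternating wells of TC17 and TC25, and the part of the plate layout in these scores was not tested.

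**Figure D4:**
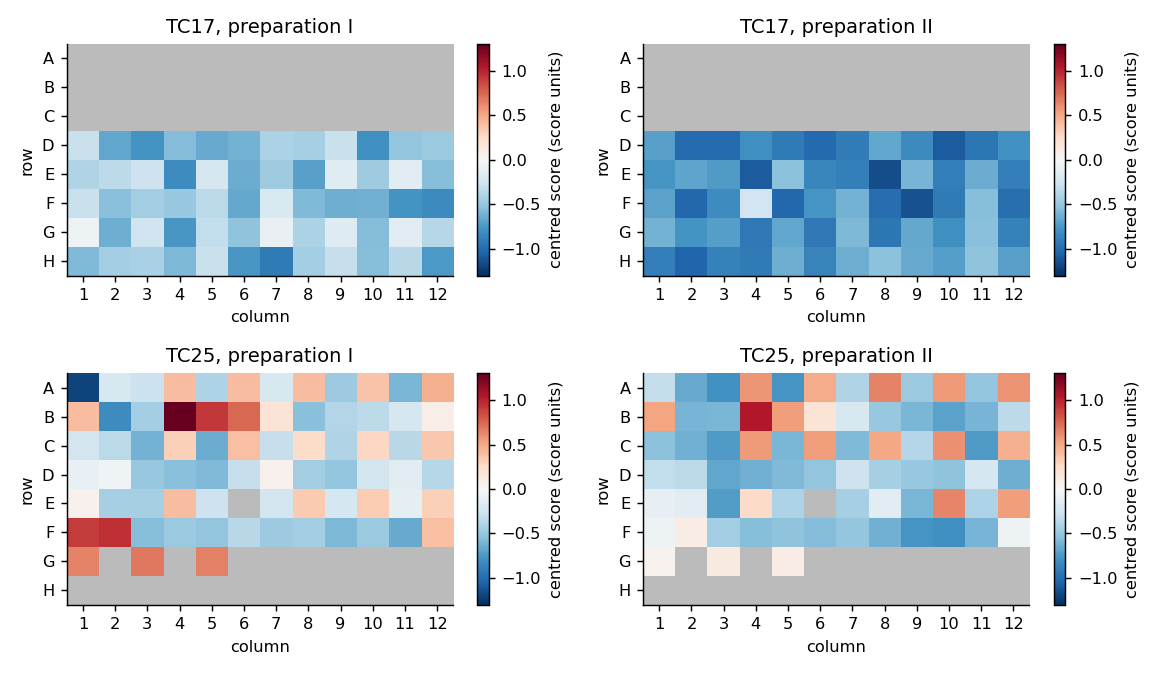
Centred score (colour, score units, red above and blue below 0) of every well of TC17 and TC25 in each preparation, with plate rows on the vertical and columns on the horizontal axis. Grey wells have no score. On TC25, rows A, C and E alternate between red even and blue odd columns from column 3 on in preparation I, and in preparation II except for 1 even well in row E, which is blue. The well E06 has no score, and row G is red in preparation I and pale in preparation II. TC17 is blue throughout.

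Adjacent tiles resembled each other over the stretch as a whole, but not on every plate. Across 798 pairs of adjacent tiles r was 0.39 in the mean of both, and 0.29 with plate means subtracted. Without TC25 it was 0.44 across 727 pairs, against 0.64 on TC00 to TC13. A tile in preparation I correlated with the next tile in preparation II with r = 0.31, and a tile in II with the next in I with r = 0.33. Without TC25 the likeness fell to 0.32 at 2 wells, 0.29 at 3 wells and 0.047 at 12 wells, and was 0.099 at 24 wells. By plate the likeness of adjacent tiles was highest on TC22, at 0.62. In the mean of both it was 0.15 on TC20 and 0.053 on TC18. Within single preparations these plates were closer, with 0.20 in I and 0.14 in II on TC20 and 0.14 in each on TC18.

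On TC17 adjacent tiles were unlike, with r = -0.26 across 59 pairs, while tiles 2 wells apart had r = 0.20 and tiles 6 wells apart 0.36. These values were larger in preparation I (-0.21, 0.27 and 0.44) than in preparation II (-0.13, 0.062 and 0.093). On TC25 r for adjacent tiles was 0.15 in I and -0.10 in II, opposite in sign. In the mean of both it was 0.020 for adjacent tiles, 0.35 at 2 wells, -0.17 at 3 wells and 0.44 at 24 wells, which is 2 rows. The correlations are across tiles, which share the hybridisation and, where they overlap or adjoin, may share DNA fragments. Neither the length nor the overlap of the tiles is known here.

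**Figure D5:**
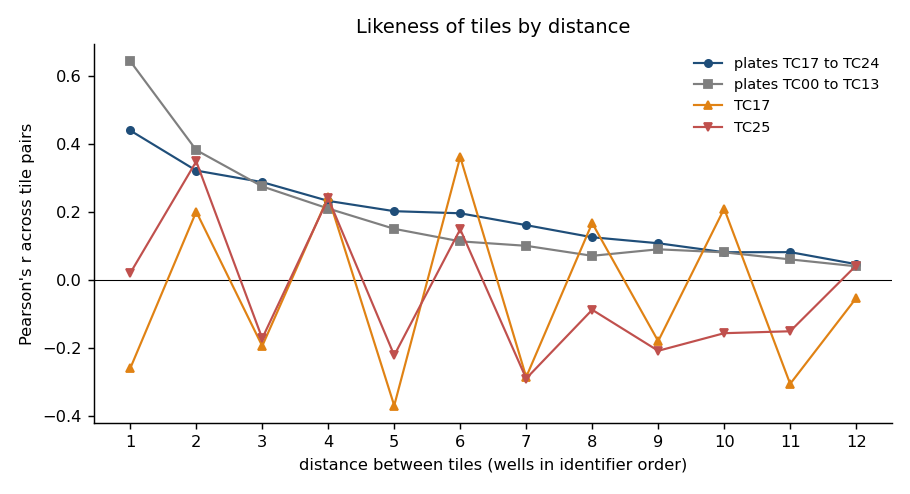
Pearson's r (vertical axis) between tiles a given number of wells apart (horizontal axis), in the mean of both preparations. The lines of TC17 to TC24 and TC00 to TC13 start at 0.44 and 0.64 and are at 0.047 and 0.040 at 12 wells, while those of TC17 and TC25 rise and fall with even and odd distances.

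The low plates TA37 to TA51 were much like this stretch by these measures. Their median was -0.44 over 1352 tiles, 86.8% of tiles lay below 0 in both preparations, and the 90th percentile was -0.047. Their highest tile reached 2.41, compared with 1.18 on TC17 to TC25. The low plates TA20 to TA28, also with 804 tiles, had a median of -0.36 and a 90th percentile of 0.32, and 4.1% of their tiles were at 1 or more. Both had been picked by low scores as well, so these values are set side by side without a test.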

How the data were processed

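Scores of 4 arrays (2 preparations, each on 2 arrays with exchanged dyes) were taken from the deposited table, which holds 1 signed score per feature. Background correction, normalization, log base, centring and direction of the deposited score are not given in the sources used here, nor is spot brightness, so no weak tile was filtered and no value is a fold change. The deposited medians were -1.09 (I) and -1.35 (II). The arrays of a preparation were averaged and each preparation was centred on its median over 21716 tiles, with no scaling. limma 3.58.1 (R 4.3.3, lmFit, eBayes, two-sided) was fitted on all tiles. Its code was also run on simulated independent normal values. Adjacent tiles are not alike in such values, so that run does not bear on the calls here. The p-values of limma rest on 1 spread between the 2 preparations, pooled over all 21716 tiles. A tile's own difference between preparations did not enter, and the number of preparations limits the precision. Medians, runs and correlations were computed with pandas 2.3.3 and numpy 2.4.6. Adjacent means consecutive wells in plate, row, column order, both scored.

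The members and comparisons were chosen with earlier results of these data known. Tiles were named by a rule: the 3 highest and 3 lowest, the extremes of each plate, tiles at 1 or more with their neighbours, the ends of the longest runs above and below 0, the 3 largest differences between preparations, and the tiles at the edges. Other tiles and wells named were chosen after their values were seen. Alternatives changed the centring, scaling, sign, variance model, threshold, minimum size, preparations and plates used. The planned comparison with plate TC16 was replaced by TC13 and TC27.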

Additional observations from a re-analysis of the deposited data

How the results depend on the processing

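Turning all signs, since the direction of the score is unknown, gave a median of 0.44, 5 tiles at 1 or more, 3 at -1 or less, 38 lower and 562 higher tiles by limma, steps of 0.64 (TC13 to TC17) and -0.0496 (TC25 to TC27), and even-odd gaps of -0.54 (TC25) and 0.22 (TC17). The mode as the zero gave a median of -0.29, 1 tile at -1 or less, 333 lower tiles and a difference between preparations of 0.25, which was 0.16 with equal scaling. A minimum size of 0.5 gave 12 high and 324 low tiles. limma's treat test with a minimum of 0.5 left 31 lower and 4 higher tiles. On the scores as deposited, without centring, limma called 0 tiles higher and 800 lower, against 38 and 562 after centring. At an unadjusted p under 0.05 limma also called 0 higher. The deposited medians over all tiles were themselves -1.09 (I) and -1.35 (II). The share of all tiles called was not computed for treat or without centring, so nothing is read from these counts. Without TC25, 16 tiles were higher, the likeness of adjacent tiles was 0.44 and the correlation of the preparations 0.75. Leaving out the 5% of tiles with the lowest and with the highest scores made this correlation 0.61. The likeness was 0.11 with wells taken by column and 0.29 with plate means subtracted. With 24 tiles on each side the step from TC13 to TC17 was -0.43.

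With 1 preparation left out, the median lay between -0.53 and -0.33, tiles at 1 or more between 2 and 3 and tiles at -1 or less between 5 and 23. The step from TC13 to TC17 lay between -0.78 and -0.51, that from TC25 to TC27 between -0.00918 and 0.0205, the likeness between 0.37 and 0.38, and the even-odd gap between 0.36 and 0.54 on TC25 and between -0.26 and -0.19 on TC17. No limma test was possible then. Of 210 values of the 35 tiles named by the rule, 200 were counted as unchanged, 7 no longer passed and 2 newly passed. TC25F01 turned to -0.0652 in preparation II alone, against 0.908 in preparation I alone. With 1 preparation left out, a named tile could count as changed only if it had passed and its sign turned. The size of its score could not count, so the 200 is no measure of how stable the sizes were. TC25A01, at -1.21 in I and -0.32 in II, was counted as unchanged. The cause of these changes was not tested. The steps, even-odd gaps and settings without TC25 were chosen after seeing the data. No paired analysis was possible because there is 1 group. The step from TC16 was not run, as that plate has no rows here.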

Other observations

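All 5 identifiers of TC17 to TC25 that have no score lie in even columns: TC19A06, TC19E06, TC25E06, TC25G02 and TC25G04. The columns of unscored identifiers elsewhere in the series were not counted, so nothing is read from this.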
